A study of Homo sapiens with 6 samples.

Results

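The genes described here encode the protein core of the spliceosome: the Sm, SNRP and SNRNP proteins, the SF3a and SF3b subunits, the LSM and PRPF families and U2AF. The set was proposed with earlier results of these data known, and within it genes were taken by symbol, with no use of their values, as names built on the stems SNRP, SNRNP, SF3A, SF3B, LSM, PRPF and U2AF. Of 61806 genes in the table, 110 matched, and dropping 56 pseudogenes left 54. The clause that drops symbols ending in P and digits was applied to pseudogenes. Read literally it would also remove the 7 SNRNP genes, among them SNRNP70, and leave 47. The table itself files 43 of the 54 under the KEGG term Spliceosome.

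HCT116, a human colorectal carcinoma cell line, was sequenced after transfer of a control short interfering RNA (si-NC, genotype label wildtype) or of one against STRIP2 (si-STRIP2, genotype label STRIP2 knockdown). Each group had 3 poly(A) RNA libraries. The labels give no dose, no time after transfer and not how many interfering RNAs against STRIP2 were used, and both groups are 1 cell line. They do not say that the libraries of a group are separate cultures, so p-values measure the spread between these libraries, which may be technical.

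An intron is removed by small nuclear ribonucleoproteins (snRNPs), each a small nuclear RNA with its proteins. U1 reads the 5′ splice site, U2 with SF3a and SF3b binds the branch point, and the U4/U6.U5 tri-snRNP then joins and is remodelled into the active enzyme. A ring of Sm proteins sits on U1, U2, U4 and U5, and a ring of LSM proteins sits on U6. Dividing cells such as carcinoma lines make these proteins in large amounts, and a minor spliceosome with its own snRNPs removes a rare class of introns.

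Of the whole series, the following bears on the values below. Total counts were 17184963 to 21721218 per library, and genes of the mitochondrial genome took 4.88% to 8.88% of them in si-NC and 5.73% to 6.30% in si-STRIP2. STRIP2 itself (ENSG00000128578), a scaffold protein of STRIPAK, a phosphatase and kinase assembly, stood at 3.19, 3.77 and 3.81 FPKM (fragments scaled by exon length and library size) in si-NC and at 2.71, 2.53 and 2.58 in si-STRIP2. All 3 si-STRIP2 libraries were below all si-NC libraries, and the mean stood at 72.6%. Its log2 fold change came to -0.46 (SE 0.083, edgeR adjusted p = 1.62e-05). Of 9 epithelial markers 7 were above 0.1 FPKM in every library, with a sum of 691 to 721 FPKM in si-NC and 668 to 691 in si-STRIP2. VIL1 and CEACAM5 were at or near 0. Of the 7 tested, 4 were called lower (CDH1, KRT18, KRT20 and EPCAM) and 2 higher (KRT19 and CDX2). CDH1, the E-cadherin gene, fell by 0.60 and KRT20 by 1.01 on the log2 scale, and their part in the results was not tested. The 12 markers of blood, endothelial and stromal cells summed to 3.46 to 4.30 FPKM, nearly all of it COL1A1 and ACTA2, and DCN was listed at 0 FPKM in all 6 libraries.

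Transcripts of the spliceosome core were mostly higher in si-STRIP2 cells. Of the 53 members tested, 42 were called higher and 1 lower, LSM8, at an adjusted p under 0.05 (edgeR quasi-likelihood test, Benjamini-Hochberg over 15687 genes). Among all genes tested 27.8% were called higher and 27.0% lower, and among the members the share called higher was 79.2%. The rises were modest: log2 fold changes ran from -0.21 for PRPF40B to 0.85 for PRPF31, with a median of 0.30, against 0.014 over all tested genes. A stricter test, which asks whether the change exceeds 1.2-fold, called 23 members higher, against 11.3% of all genes, and 0 lower, against 12.4%. At an unadjusted p under 0.05 the stricter edgeR test also called 0 lower, and no other tool was run for it. For 43 members every si-STRIP2 library had a higher FPKM than every si-NC library, as for 30.0% of all genes. In 3 members, LSM8, LSM10 and PRPF40B, all si-STRIP2 libraries were below all si-NC libraries, as in 4499 of the 15687 genes tested.

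Summed over the members, the level was 1498, 1523 and 1455 FPKM in si-NC and 1880, 1854 and 1826 FPKM in si-STRIP2. Their share of all counts averaged 0.557% ± 0.0102 in the control libraries and 0.706% ± 0.00872 in the si-STRIP2 libraries (SD, n = 3 each). Both sums separated the groups without overlap. Each is relative to the rest of the library, and in RNA from a whole culture more cells of a kind and more RNA per cell cannot be told apart. The 56 pseudogenes that the rule drops held 167 to 219 counts per library in all.

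**Figure D1:**
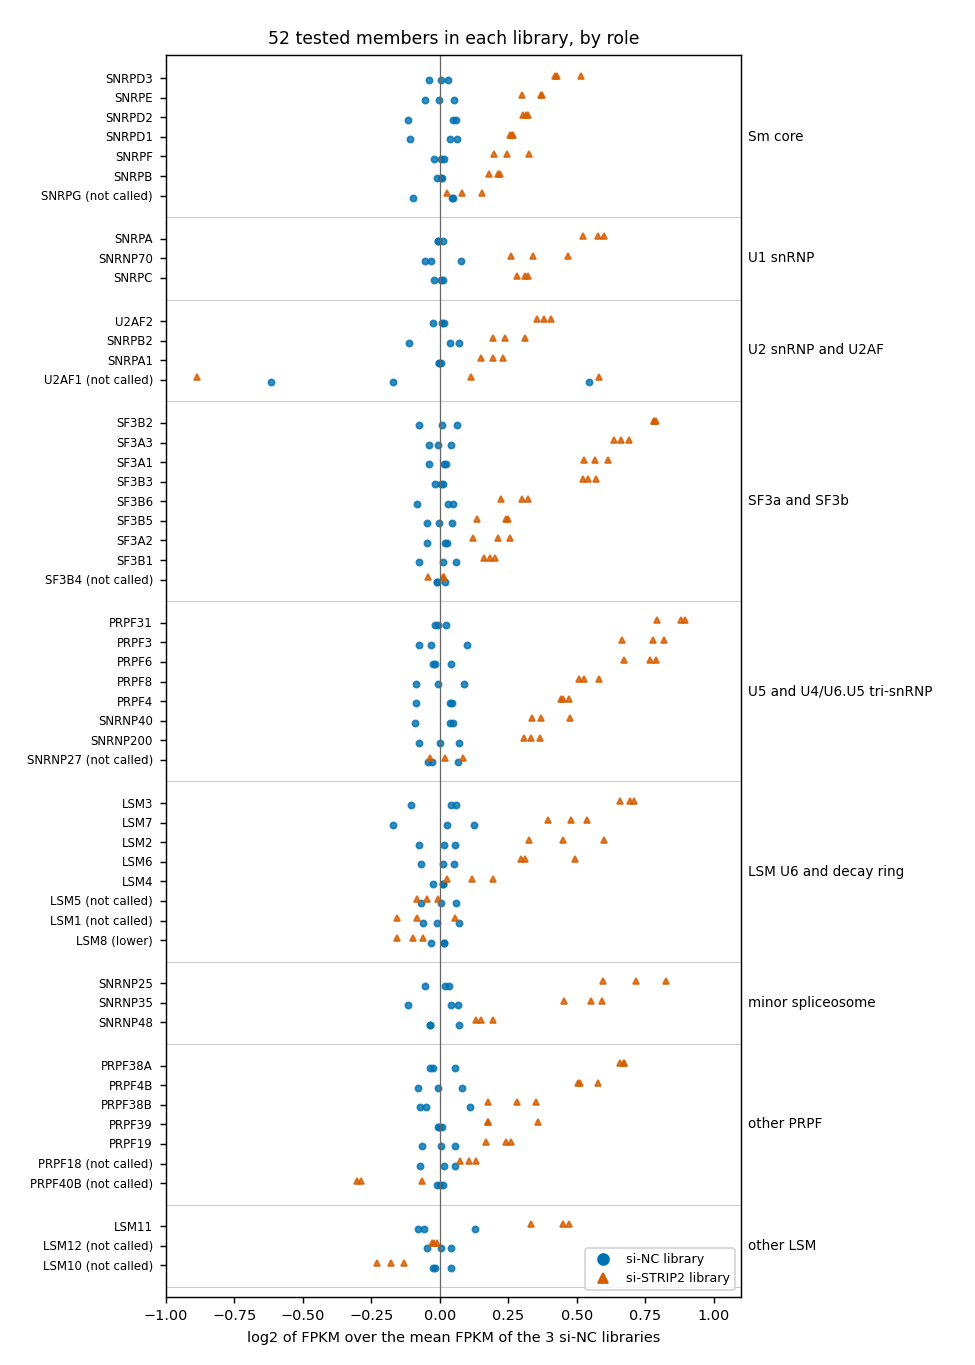
FPKM of 52 tested members in each library, as log2 of its ratio to the si-NC mean (x axis), by role (right). Circles are the 3 si-NC libraries and triangles the 3 si-STRIP2 libraries. Triangles lie to the right of all circles for 42 of them and to the left of all circles for LSM8, LSM10 and PRPF40B.

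**Figure D2:**
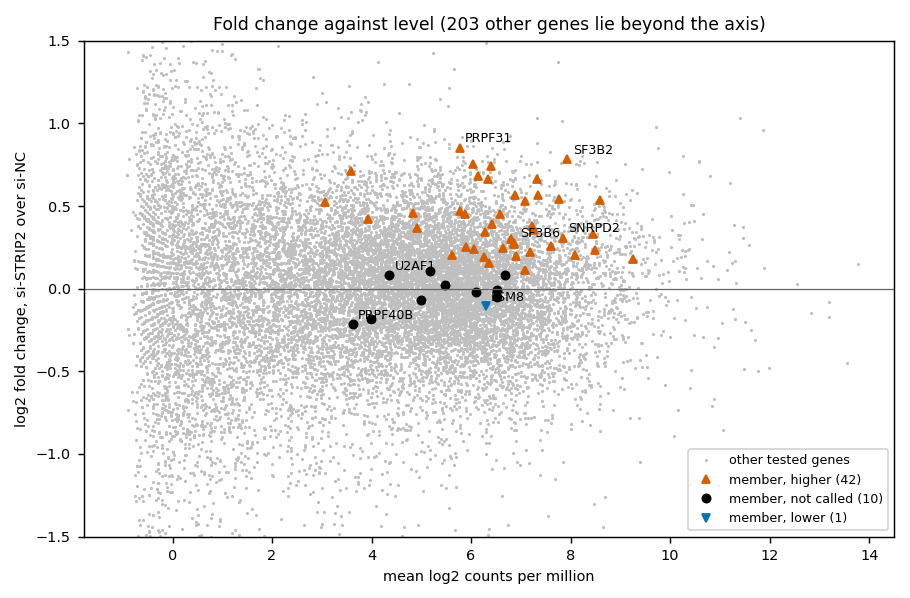
Log2 fold change (y axis) against mean log2 CPM (counts scaled by library size, x axis) for all tested genes (grey) and the members (coloured by call). Members called higher occur at low and high levels, and 203 other genes with a change beyond 1.5 in size are outside the axis.

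The Sm proteins form the 7-part ring that clasps the small nuclear RNAs, with SNRPB or its near-twin SNRPN at one position. Of 7 tested genes, SNRPD3, SNRPE, SNRPD2, SNRPD1, SNRPF and SNRPB were called higher and SNRPG was not, and the median log2 change was 0.26. SNRPD3 (ENSG00000100028, chr22:24555958-24582052, plus strand) had 12.86, 12.65 and 12.27 FPKM in si-NC and 16.84, 16.95 and 17.99 in si-STRIP2. Every si-STRIP2 library was above every si-NC library, and the log2 fold change was 0.45 (SE 0.049, edgeR adjusted p = 1.57e-09). SNRPE (ENSG00000182004, chr1:203861599-203871152, plus strand) had 32.56, 33.86 and 31.45 FPKM against 42.24, 40.15 and 42.21. These groups were also apart, with a log2 fold change of 0.35 (SE 0.045, edgeR adjusted p = 6.12e-08). SNRPD2, SNRPD1, SNRPF and SNRPB had log2 fold changes of 0.20 to 0.31. SNRPG overlapped between groups, with 57.78, 57.83 and 52.25 FPKM in si-NC and 62.22, 56.94 and 59.15 in si-STRIP2 (edgeR adjusted p = 0.126).

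Although the ring holds its proteins in equal number, their transcript levels were unequal. In si-NC the lowest mean was that of SNRPD3 at 12.6 FPKM and the highest that of SNRPD2 at 142 FPKM, 11.3-fold apart. In si-STRIP2 the same pair was 10.2-fold apart. The annotated exon length, by which FPKM divides, was 1441 bases for SNRPD2, 3914 for SNRPD3 and 5153 for SNRPB. By counts SNRPB stood above SNRPD2 in si-NC, at 4315 to 5524 against 3252 to 4608. The rank and the gap thus depend on the length used. SNRPN, the tissue-restricted twin of SNRPB, had no count in 5 libraries and 1 count in si-STRIP2 library 1, so it failed the filter on low counts and no ratio to SNRPB could be formed. A count of 0 allows up to 3 counts per library. SNRPN shares 46.9% of its 75-base stretches with other genes, among them SNURF, which also had 0 counts. SNHG14, which overlaps SNRPN on the same strand, had 24 counts over all libraries. Reads that match overlapping genes can be dropped by the counting, so the level of SNRPN here is uncertain. GUCD1 overlaps SNRPD3 on the opposite strand, and the genes overlapping SNRPD3 held 71.3% as many counts. GUCD1 rose too (log2 fold change 0.31, edgeR adjusted p = 1.09e-05). Whether the authors' counting used strand is not given in the sources used here, and without strand reads of such a pair cannot be told apart.

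All 3 U1-specific proteins were called higher, and their median log2 change was 0.36. SNRPA (ENSG00000077312, chr19:40750637-40765389, plus strand), which binds a stem-loop of U1 RNA, had 40.27, 40.21 and 40.73 FPKM in si-NC and 61.22, 60.26 and 58.09 in si-STRIP2. The spread within a group was small beside the gap, at 40.4 ± 0.284 against 59.9 ± 1.60 (SD, n = 3). Its log2 fold change was 0.56 (SE 0.041, edgeR adjusted p = 1.09e-13). C19orf54, which overlaps SNRPA on the opposite strand, held 16.9% as many counts and was lower (log2 fold change -0.30, edgeR adjusted p = 0.00203). SNRNP70, the U1-70K protein, stood at 0.36 and SNRPC, which contacts the 5′ splice site duplex, at 0.30. The groups did not overlap for either gene.

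Of 4 genes for U2 proteins and for U2AF, which reads the 3′ end of the intron, 3 were called higher (median log2 change 0.22). U2AF2 (ENSG00000063244, chr19:55654146-55674716, plus strand), which binds the polypyrimidine tract, had 31.31, 32.10 and 32.24 FPKM in si-NC and 42.26, 41.53 and 40.77 in si-STRIP2. Every si-STRIP2 value was above every control value (log2 fold change 0.38, SE 0.040, edgeR adjusted p = 6.29e-10). SNRPB2, the U2 B″ protein, had 35.53, 36.37 and 32.06 FPKM against 39.65, 42.99 and 40.92. Its groups were apart with a log2 fold change of 0.24 (SE 0.047, edgeR adjusted p = 4.21e-05). SNRPA1, the U2 A′ protein, rose by 0.19.

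U2AF1, which reads the AG at the intron's end, gave no usable comparison. It had 1.18, 1.61 and 2.64 FPKM in si-NC and 2.71, 0.98 and 1.96 in si-STRIP2, and the groups overlapped throughout (log2 fold change 0.083, SE 0.20, edgeR adjusted p = 0.744). Counts were 284, 310 and 504 against 564, 191 and 374. U2AF1 shares 96.7% of its 75-base stretches with other genes, among them U2AF1L5, a second copy in the annotation. U2AF1L5 had 165, 139 and 95 counts in si-NC and 105, 135 and 127 in si-STRIP2. The sum of both copies was 449, 449 and 599 counts against 669, 326 and 501, which overlapped as well. Reads that match both copies can be split or dropped by the counting, so the level of U2AF1 here is uncertain. Without si-NC library 3 the log2 fold change was 0.45 (edgeR adjusted p = 0.0393), without si-NC library 1 it was -0.17 (0.517) and without si-STRIP2 library 1 it was -0.27 (0.243).

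SF3a and SF3b are the parts of U2 that hold the branch point, and SF3B1 is the subunit that clamps it. Of 9 genes 8 were called higher (median log2 change 0.28). SF3B2 (ENSG00000087365, chr11:66050729-66069308, plus strand) had 18.42, 19.14 and 17.40 FPKM in si-NC and 31.53, 31.55 and 31.71 in si-STRIP2. The si-STRIP2 libraries were close to one another (SD 0.0987 FPKM, n = 3) and all above the controls. The log2 fold change of 0.78 (SE 0.041, edgeR adjusted p = 2.13e-17) was the second highest of the members. SF3A3 (ENSG00000183431, chr1:37956975-37990075, minus strand), a subunit of SF3a, had 31.82, 32.90 and 31.14 FPKM against 49.64, 50.62 and 51.62. Its groups were apart too (log2 fold change 0.66, SE 0.041, edgeR adjusted p = 1.53e-15).

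SF3A1 and SF3B3 had log2 fold changes of 0.57 and 0.54, so that SF3B2, SF3A3, SF3A1 and SF3B3 were all higher by more than 1.2-fold under the stricter test. These 4 were also the SF3 genes of lowest FPKM in si-NC, with means of 14.3 to 32.0. FPKM divides by the annotated exon length, which was 9795 bases for SF3B2 and 1704 for SF3B4. In counts SF3B2 was above SF3B4, with 2929 to 3920 against 1576 to 1980 in si-NC, so this rank depends on the length used. SF3B6, SF3B5, SF3A2 and SF3B1 had means of 39.8 to 93.6 FPKM in si-NC and log2 fold changes of 0.18 to 0.28. By FPKM, the gap between the highest and lowest subunit, SF3B6 and SF3B3, was 6.56-fold in si-NC and 5.47-fold in si-STRIP2. SF3B4 did not pass the test, with 53.49, 53.43 and 54.50 FPKM against 54.34, 54.28 and 52.20 (log2 fold change -0.0085, SE 0.042, edgeR adjusted p = 0.881). PLEKHJ1, which overlaps SF3A2 on the opposite strand, held 18.9% as many counts and rose by 0.28.

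**Figure D3:**
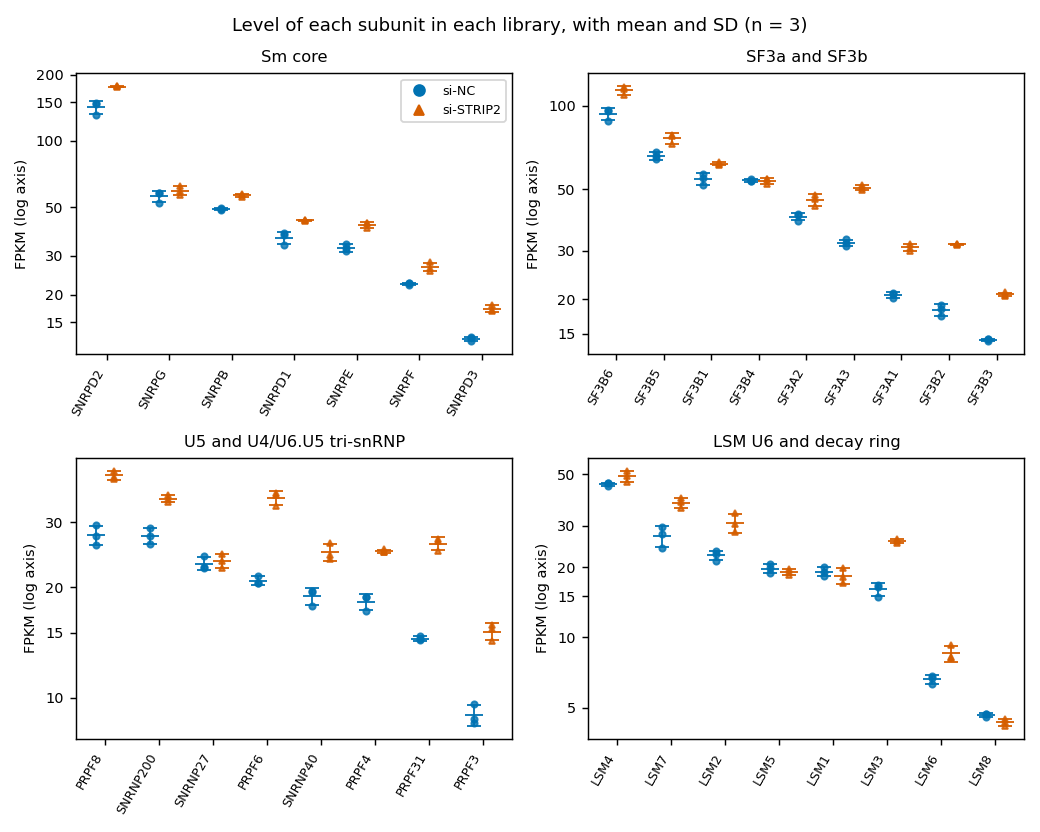
FPKM (log axis) of each subunit of 4 assemblies in the 3 si-NC libraries (circles) and the 3 si-STRIP2 libraries (triangles), with horizontal bars for the mean and capped bars for the SD. Genes run from the highest to the lowest si-NC mean. Among the SF3 genes the groups are widest apart for SF3A3, SF3A1, SF3B2 and SF3B3, and the tri-snRNP genes are apart except SNRNP27.

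The U5 and tri-snRNP genes had a median log2 change of 0.49: 7 of 8 were called higher, 6 of these beyond 1.2-fold. PRPF31 (ENSG00000105618, chr19:54115410-54131719, plus strand), which with its partners anchors the U4/U6 duplex, had 14.71, 14.33 and 14.43 FPKM in si-NC and 26.70, 26.96 and 25.09 in si-STRIP2. All si-STRIP2 libraries were well above the controls, a 1.81-fold rise (log2 fold change 0.85, SE 0.050, edgeR adjusted p = 4.35e-16). PRPF6 (ENSG00000101161, chr20:63981132-64033100, plus strand), which bridges U5 and U4/U6, had 20.55, 21.44 and 20.47 FPKM against 35.46, 35.99 and 33.21. Its groups were apart with a log2 fold change of 0.74 (SE 0.045, edgeR adjusted p = 8.16e-16). PRPF3 (ENSG00000117360, chr1:150321479-150353233, plus strand), a U4/U6 protein, had 8.77, 8.52 and 9.62 FPKM against 15.81, 15.37 and 14.24. No si-STRIP2 library was as low as a control (log2 fold change 0.75, SE 0.051, edgeR adjusted p = 1.93e-14).

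PRPF8, the scaffold of the catalytic core, stood at 0.54 on the log2 scale, and PRPF4, the partner of PRPF3, at 0.45. SNRNP40, a U5 protein (0.39), and SNRNP200 (0.33), the helicase that unwinds U4 from U6, were also called higher. For SNRNP200 the stricter test missed the threshold (edgeR adjusted p = 0.0538). SNRNP27 did not pass (log2 fold change 0.021, SE 0.054, edgeR adjusted p = 0.766). It shares 7.75% of its 75-base stretches with MXD1, an overlapping gene on the same strand that held 35.7% as many counts and was lower in si-STRIP2 (log2 fold change -1.09, edgeR adjusted p = 1.10e-11). TFPT, which overlaps PRPF31 on the opposite strand, was lower (log2 fold change -0.31, edgeR adjusted p = 0.0285). Genes overlapping PRPF31 held 13.1% as many counts. CDC26, which overlaps PRPF4 on the opposite strand, held 22.55% as many counts as PRPF4 and rose by 0.26. By FPKM, PRPF3 had the lowest and PRPF8 the highest level of the 8, 3.08-fold apart in si-NC and 2.66-fold in si-STRIP2. The exon length used was 5408 bases for PRPF3 and 2673 for PRPF31. By counts PRPF31 stood below PRPF3 in si-NC, at 663 to 854 against 798 to 1030, so the lowest rank depends on this length.

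LSM2 to LSM7 occur in both LSM rings: with LSM8 they bind the tail of U6 in the nucleus, and with LSM1 they bind mRNAs marked for decapping in the cytoplasm. Among the 8 genes, LSM3, LSM7, LSM2, LSM6 and LSM4 were called higher and LSM8 lower, and LSM1 and LSM5 were not called. LSM3 (ENSG00000170860, chr3:14178817-14201122, plus strand) had 16.72, 16.51 and 14.93 FPKM in si-NC and 25.97, 26.26 and 25.31 in si-STRIP2. The groups were well apart (log2 fold change 0.68, SE 0.048, edgeR adjusted p = 4.95e-14). LSM7 (ENSG00000130332, chr19:2321520-2328611, minus strand) had 27.69, 29.64 and 24.13 FPKM against 37.84, 39.39 and 35.75. It too was higher in all si-STRIP2 libraries (log2 fold change 0.47, SE 0.057, edgeR adjusted p = 1.41e-08). LSM2 rose by 0.46, LSM6 by 0.37 and LSM4 by 0.11. LSM4 had 44.36, 45.57 and 45.58 FPKM against 49.06, 51.66 and 46.01, so that the third si-STRIP2 library was close to the controls (SE 0.043, edgeR adjusted p = 0.0268). This call was lost under 9 of 16 alternatives.

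The proteins that set the rings apart, LSM8 and LSM1, were not called higher. LSM8 (ENSG00000128534, chr7:118184144-118204035, plus strand) had 4.72, 4.72 and 4.57 FPKM in si-NC and 4.48, 4.19 and 4.36 in si-STRIP2. The groups did not overlap, but the gap was small (log2 fold change -0.11, SE 0.044, edgeR adjusted p = 0.0398), and the call was lost under 10 of 16 alternatives. LSM1 had 20.08, 18.99 and 18.33 FPKM against 17.16, 19.90 and 18.08, which overlapped (log2 fold change -0.066, SE 0.067, edgeR adjusted p = 0.418). LSM5 overlapped as well at -0.051 (SE 0.045, edgeR adjusted p = 0.346). By FPKM, LSM8 was the lowest and LSM4 the highest of the 8, 9.67-fold apart in si-NC and 11.3-fold in si-STRIP2. FPKM divides by the annotated exon length, which was 17309 bases for LSM8 and 3975 for LSM6. In counts LSM8 was above LSM6, with 1359 to 1774 against 432 to 577 in si-NC, so this rank depends on the length used. Whether LSM1 and LSM8 differ from the shared subunits in their change was not tested. Genes overlapping LSM1 on the opposite strand held 251% as many counts, mostly BAG4, which rose by 0.28, and XPC, overlapping LSM3, held 75.6% as many and rose by 0.16. SPPL2B, which overlaps LSM7 on the opposite strand, held 38.7% as many counts and rose by 0.42.

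LSM10 and LSM11 replace part of the Sm ring on U7, the small nuclear RNA of histone mRNA 3′ end formation. LSM11 (ENSG00000155858, chr5:157743712-157760709, plus strand) had 1.86, 1.89 and 2.15 FPKM in si-NC and 2.69, 2.73 and 2.48 in si-STRIP2. Every si-STRIP2 library was above the controls (log2 fold change 0.42, SE 0.087, edgeR adjusted p = 1.12e-04). LSM10 went the other way in value, with 10.97, 11.43 and 10.93 FPKM against 9.48, 10.14 and 9.83. These groups did not overlap either, yet the test was not passed (log2 fold change -0.18, SE 0.082, edgeR adjusted p = 0.0595), though it was passed under 4 of 16 alternatives. LSM12, a relative outside these rings, stood at -0.022 (edgeR adjusted p = 0.711) and shares 50.7% of its 75-base stretches with LSM12P1, which held 11.9% as many counts.

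The 3 members that belong to the minor spliceosome's U11/U12 snRNP were called higher. SNRNP25 (ENSG00000161981, chr16:53828-57669, plus strand) had 4.11, 4.07 and 3.87 FPKM in si-NC and 6.60, 6.07 and 7.12 in si-STRIP2. The lowest si-STRIP2 value was above the highest control (log2 fold change 0.71, SE 0.096, edgeR adjusted p = 1.29e-07). SNRNP35 rose by 0.53 (SE 0.11, edgeR adjusted p = 1.36e-04) and SNRNP48 by 0.16. SNRNP48 (ENSG00000168566, chr6:7590198-7611967, plus strand) had 12.94, 13.93 and 12.94 FPKM against 14.56, 14.72 and 15.18, a small gap without overlap (SE 0.045, edgeR adjusted p = 0.00338). POLR3K overlaps SNRNP25 on the opposite strand with 78.7% as many counts, and RILPL1 overlaps SNRNP35 with 84.5%. Neither neighbour was called (log2 fold changes 0.13 and 0.22, edgeR adjusted p = 0.316 and 0.155).

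Of 8 further PRPF genes 6 were called higher (median log2 change 0.24). PRPF38A (ENSG00000134748, chr1:52404602-52420836, plus strand), a protein of the complex that precedes activation, had 10.95, 11.58 and 10.86 FPKM in si-NC and 17.74, 17.58 and 17.76 in si-STRIP2. Its si-STRIP2 values were nearly equal and all above the controls (log2 fold change 0.67, SE 0.044, edgeR adjusted p = 8.99e-15). PRPF4B (ENSG00000112739, chr6:4021267-4064983, plus strand), a kinase of the tri-snRNP, had 12.37, 13.01 and 13.85 FPKM against 19.53, 18.64 and 18.58. It was likewise higher in all 3 libraries (log2 fold change 0.53, SE 0.043, edgeR adjusted p = 1.66e-12). PRPF38B, PRPF39 and PRPF19, the last a ubiquitin ligase that names its own complex, had log2 fold changes of 0.22 to 0.27. FKBP3, which overlaps PRPF39 on the opposite strand, held 132% as many counts and rose by 0.44. PRPF18, a second-step factor, was at 0.10 (edgeR adjusted p = 0.131).

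PRPF40B, which helps U1 at the 5′ splice site, had 1.37, 1.38 and 1.39 FPKM in si-NC and 1.13, 1.32 and 1.12 in si-STRIP2. The groups were apart but the gene was not called (log2 fold change -0.21, SE 0.095, edgeR adjusted p = 0.0542), and it was called lower under 4 of 16 alternatives. The genes that overlap it on the opposite strand, mainly FMNL3, held 40.5% as many counts.

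Other genes of the pathway, from lists of known partners, are given for comparison, with up to 3 called genes of each list by smallest adjusted p. Their few called-lower genes are also named, chosen after their values were seen. Of 9 tri-snRNP partners 8 were called higher and none lower, with a median of 0.34. EFTUD2, the U5 GTPase, rose by 0.71, DDX23, the U5 helicase, by 0.76 and PPIH, a tri-snRNP cyclophilin, by 0.69. Of 10 partners of U2 at the branch site 7 were called higher, led by SMNDC1 at 0.47, PUF60 at 0.39 and CHERP at 0.46. In the minor spliceosome 4 of 6 partners were called higher and PDCD7, a U11/U12 protein, rose by 0.64.

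Among 22 proteins of the Prp19 complex and the catalytic steps, 14 were called higher and 3 lower. XAB2 rose by 0.77, DDX41 by 0.68 and CDC5L by 0.44, while SLU7 fell by 0.23, SYF2 by 0.17 and RBM22 by 0.16 on the log2 scale. Factors of snRNP assembly and of small nuclear RNA export were mixed, with 9 of 19 called higher and 4 lower. GEMIN4 rose by 0.61, WDR77, the partner of the methyltransferase PRMT5, by 0.74 and GEMIN5, which recognises the snRNA, by 0.48. NCBP2 of the cap-binding complex (-0.29), CLNS1A, STRAP and SMN1 were called lower, and SMN1 shares its reads with SMN2, so its value is uncertain. Of 4 U6 processing factors 1 was called, TUT1 (0.37). Of 8 decapping partners of the LSM1 ring 2 were called higher, DCP2 at 0.42 and EDC4 at 0.22, and PATL1 fell by 0.37. For U7 and histone mRNA processing 4 of 7 were called higher, led by SYMPK at 0.39, CPSF3 at 0.36 and SLBP at 0.25, and CPSF2 fell by 0.17. Members aside, the table puts 132 tested genes under the KEGG Spliceosome term. Of these, 66 were called higher (50.0%) and 19 lower (14.4%), with a median of 0.17. Genes of the partner lists were not taken out, so they can be counted here again.

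**Figure D4:**
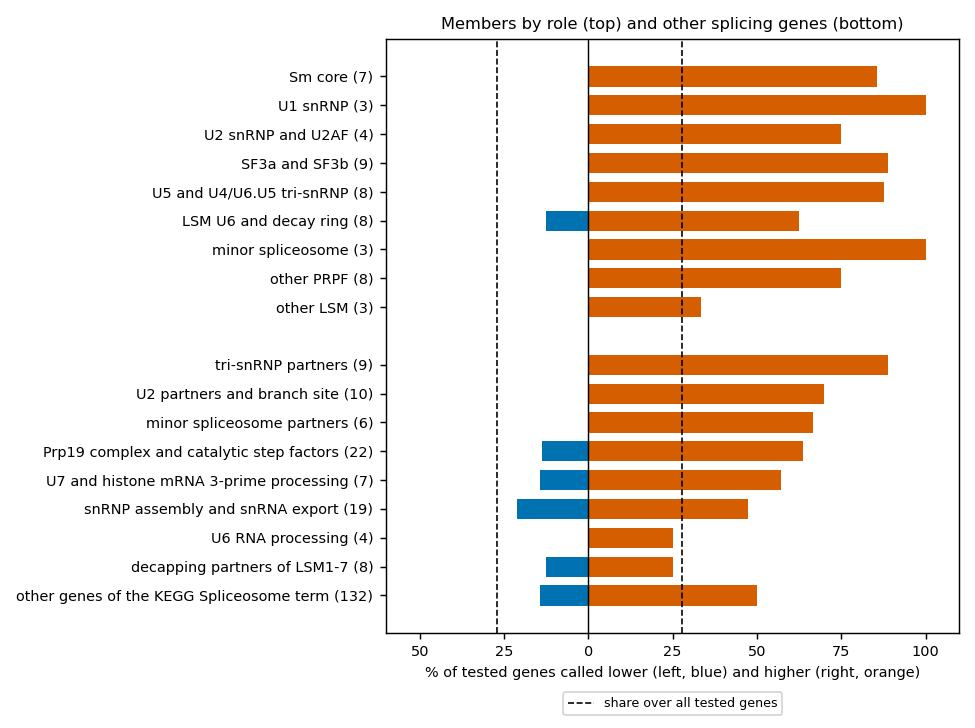
Share of tested genes called higher (right) and lower (left), in percent, for the members by role (top) and for lists of other splicing genes (bottom), with the number tested in parentheses. The KEGG list leaves out members only and can share genes with the partner lists. Dashed lines mark the 27.8% and 27.0% of all tested genes. All member roles lie right of the line, and U6 processing and decapping partners lie at 25.0%.

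Correlations of the change with gene structure and level were low. Across 53 members, the Spearman correlation of the log2 fold change with coding length was 0.28, with exon number 0.25 and with mean log2 CPM 0.13. Over 12792 tested protein-coding genes the same values were 0.0025, 0.050 and 0.017. These are correlations across genes of the same 6 libraries, given as descriptions.

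Promoter sequence was read for 45 members that matched a RefSeq entry (GRCh38.p14), as the 250 bases before and 50 after the start. The ETS word CCGGAAG, on either strand, was in 20 of the 45 (44.4%), against 19.0% of 11073 promoters of tested genes and 10.3% of all 35116. It occurred 27 times, 17 of them within 100 bases before the start, and 6 members held it more than once. By whether the member was higher beyond 1.2-fold, it was in 6 of 19 (31.6%) that were and in 14 of 26 (53.8%) that were not. The CCAAT box (CCAAT) was in 42.2% of member promoters against 36.8% of those of tested genes, the GC box (GGGCGG) in 64.4% against 70.1%, and the E-box (CACGTG) in 4.44% against 9.94%. The E2F words (TTTCCCGC, TTTGGCGC, TTTGCCGC and TTTCGCGC) were in 6.67% against 5.35%, and the NRF1 motif in 2.22% against 2.28%. Split by the stricter test in the same way, the GC box was in 15 of 19 (78.9%) against 14 of 26 (53.8%). The CCAAT box was in 6 of 19 (31.6%) against 13 of 26 (50.0%). The E-box, E2F words and NRF1 motif were each in 0 to 1 of the 19 and 0 to 2 of the 26. None of the spelled words contains another, though matches can overlap, as do the 2 ETS words of SNRPC. A match describes letters and shows no binding.

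The first ETS word of 5 of the 6 members that were higher beyond 1.2-fold is shown with 10 bases on each side (9 before the word in SNRPE), 5′ to 3′ on the gene's strand, the word in capitals in either orientation. These stretches stand behind the share given, and the other member, PRPF6, is printed at more length further on.
SF3B2, chr11:66052301-66052327, plus strand: tacggcgccaCCGGAAGttccggcaag
SF3A3, chr1:37990074-37990100, minus strand: tcccggggcaCTTCCGGcactcgcgga
SF3A1, chr22:30356927-30356953, minus strand: ggggacggtcCCGGAAGtgcgccagtc
U2AF2, chr19:55654995-55655021, plus strand: ccggcggcggCCGGAAGtagccgaagc
SNRPE, chr1:203861597-203861622, plus strand: ttctttattCCGGAAGttgctctcag

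For contrast, these are the same words in members that were not called or were lower.
SF3B4, chr1:149927813-149927839, minus strand: cgtcttcgccCCGGAAGtggaagtcgt
SNRNP27, chr2:69893932-69893958, plus strand: cccggccctcCCGGAAGttgttgcaca
SNRPG, chr2:70293492-70293518, minus strand: ttcatttcttCTTCCGGtccgaggtcg
PRPF18, chr10:13586937-13586963, plus strand: ccagcttccgCCGGAAGcggctcctgt
LSM5, chr7:32490363-32490389, minus strand: aggcaggccaCTTCCGGcgtagccatg
LSM8, chr7:118183965-118183991, plus strand: tcttacgaggCTTCCGGaacacggccc

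Of the 45 windows 5 held no annotated exon in their 250 bases before the start and lay outside the span of their own gene. Among the tested members of these, PRPF6 had the highest log2 fold change and SNRNP48 the smallest in size. Both are printed with the searched words in capitals. PRPF6 holds the ETS word at bases -106 and -24 and a GC box at -74 and -54. SNRNP48 holds a CCAAT box at -101, GC boxes at -72 and -15 and an E-box at -33, and no ETS word.
PRPF6, chr20:63980882-63981131, plus strand: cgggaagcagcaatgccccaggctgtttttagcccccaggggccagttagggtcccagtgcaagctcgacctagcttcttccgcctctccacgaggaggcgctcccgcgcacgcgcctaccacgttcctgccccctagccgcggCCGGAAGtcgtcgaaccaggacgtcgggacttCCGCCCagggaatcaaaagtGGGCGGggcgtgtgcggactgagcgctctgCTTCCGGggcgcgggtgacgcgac
SNRNP48, chr6:7589948-7590197, plus strand: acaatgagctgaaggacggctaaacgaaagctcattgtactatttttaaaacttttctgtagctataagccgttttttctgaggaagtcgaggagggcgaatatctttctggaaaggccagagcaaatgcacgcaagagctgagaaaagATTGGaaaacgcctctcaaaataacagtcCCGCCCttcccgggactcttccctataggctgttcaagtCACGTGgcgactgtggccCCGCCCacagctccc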

How the data were processed

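Per the labels, poly(A) RNA of HCT116 cells was sequenced in 3 si-NC and 3 si-STRIP2 libraries from a directional kit. Per the file headers, the table the authors deposited holds a whole-number count and an FPKM value per gene and library. The submitters' processing notes name cutadapt 1.9.1, HISAT2 2.2.1, HTSeq 0.6.1 and GRCh38.p13, and strand use in counting is not given in the sources used here. The deposited FPKM values differed from counts scaled by gene size and library total by at most 0.005.

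The filter was filterByExpr with a minimum count of 10, and 15687 genes with 99.8% of counts passed. They were tested in R 4.3.3 with edgeR 4.0.16 (TMM scaling with factors of 0.990 to 1.01, quasi-likelihood test, group as the only term, 2-sided), with Benjamini-Hochberg adjustment over all of them. Each SE is the log2 fold change over the square root of F, and the stricter test is glmTreat at 1.2-fold. The biological coefficient of variation was 0.0388, and no pair of libraries within a group agreed within sampling noise. Alternatives used other scalings, filters and thresholds, DESeq2 1.42.0, limma 3.58.1 on log2(FPKM + 1) and log2(FPKM + 0.1), a replicate block and leaving out each library. The test was tried on simulated data.

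Exon overlaps and shared 75-base stretches came from GENCODE 29. Counts of overlapping genes are given as a percentage of the member's counts over all 6 libraries. Coordinates of genes are the table's.

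Members, by the rule on symbols, and role groups, partner lists and motifs were chosen with earlier results of these data known. Counts cover every member, and the values of 1 member are not reported here. Library values are given for the 2 members of smallest adjusted p in each role (1 in roles of 3 or fewer), the 3 highest and 3 lowest fold changes among called members, members called lower, U2AF1 and SNRPN. Values by library of other members were added after they were seen.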

Additional observations from a re-analysis of the deposited data

How the results depend on the processing

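Of 53 tested members 46 had the same call and sign in all 16 alternatives, among them 41 of the 42 called higher. The number called higher stayed between 41 and 43, and the number higher beyond 1.2-fold between 19 and 23. The number called lower was 2 with RLE scaling, 3 without genes of the mitochondrial genome and 3 with a filter of at least 1 FPKM in 3 libraries. It was 0 with library totals only, DESeq2, no filter on low counts and an adjusted p under 0.01. Leaving out 1 library gave 0 to 1. Reading the pseudogene clause literally gave 36 of 46 called higher and a median log2 fold change of 0.27. Leaving out 1 library, U2AF1 ranged from -0.27 to 0.45, SNRNP27 from -0.0098 to 0.045 and SF3B4 from -0.023 to 0.0045. The sign turned for U2AF1 without si-NC replicate 1 (-0.17) or si-STRIP2 replicate 1, for SNRNP27 without si-NC replicate 3 (-0.00066) or si-STRIP2 replicate 2, and for SF3B4 without si-STRIP2 replicate 3. The cause of these shifts was not tested. The median of all tested genes lay between 0.0021 and 0.046 across settings.

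With a replicate block 41 members were called higher, 0 lower and 21 higher beyond 1.2-fold, with a median of 0.30. The block changed the calls of LSM4 (edgeR adjusted p = 0.0503) and LSM8 (0.0725). Same-numbered libraries did not deviate together (correlations -0.086, -0.013 and -0.072 across 15687 genes). This gave no sign of pairing by number, but it cannot show whether the libraries were prepared in pairs. Members of low count, such as SNRNP35, PRPF40B and LSM11, have the wider errors, and 3 libraries a group limit all of them.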
